A study of Mus musculus with 25 samples.

Results

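Hearts of mice labelled MCT1KO were compared with hearts of wild-type (WT) mice, both labelled saline, in 10 of the 25 hearts of a mouse RNA sequencing study. The members were chosen by title: 4 hearts read MCT1KO SALINE and 6 read WT SALINE. Saline is taken as the vehicle given by pump, because another treatment of the study is labelled no pump. The other 15 hearts were 4 WT and 3 MCT1KO hearts without a pump, and 3 WT and 5 MCT1KO hearts given Ang/PE, which the series describes as neurohormonal agonists that cause hypertrophy of the heart. The series asks how lactate is used by the heart during hypertrophy. The labels give no strain, age, sex, infusion time or dose, and they do not say which cells or which exons the MCT1KO allele affects. Each library is a different heart, so the spread between libraries includes the spread between animals.

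Slc16a1 encodes MCT1, a monocarboxylate transporter that carries lactate, pyruvate and ketone bodies across membranes together with protons. Heart muscle burns fatty acids, lactate, ketone bodies and glucose, and it shifts between these fuels with supply and load. Fatty acid enzymes of the heart are under the control of the nuclear receptor PPAR alpha, which pairs with RXR and binds repeats of the letters AGGTCA. Atrial muscle and the brown fat around the great vessels lie next to the ventricles, and a whole-heart RNA sample can hold some of either.

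The fatty acid list, the longest of the gene lists examined, had the most members on the low side in the saline hearts labelled MCT1KO. Some shorter lists, such as that of 8 cardiomyocyte genes, had all members below WT. The bases before 3 of the fatty acid genes are shown first. Each stretch is the 250 bases before the gene's start in the RefSeq promoter table of build GRCm38.p6, read 5′ to 3′ on the gene's strand. The capitals mark AGGTCA or its reverse complement TGACCT. Acadm, which encodes medium-chain acyl-CoA dehydrogenase, lies on the minus strand, and the stretch covers chr3:153944644-153944893. Ucp3, which encodes an uncoupling protein of muscle mitochondria, lies on the plus strand, with chr7:100472741-100472990. Plin5, which encodes a lipid droplet protein of oxidative tissue, lies on the minus strand, with chr17:56117549-56117798.
Acadm: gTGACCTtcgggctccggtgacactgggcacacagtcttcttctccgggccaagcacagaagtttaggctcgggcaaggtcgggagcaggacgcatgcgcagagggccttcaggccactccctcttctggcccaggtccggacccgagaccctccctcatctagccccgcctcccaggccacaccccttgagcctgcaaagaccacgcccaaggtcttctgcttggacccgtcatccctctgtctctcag
Ucp3: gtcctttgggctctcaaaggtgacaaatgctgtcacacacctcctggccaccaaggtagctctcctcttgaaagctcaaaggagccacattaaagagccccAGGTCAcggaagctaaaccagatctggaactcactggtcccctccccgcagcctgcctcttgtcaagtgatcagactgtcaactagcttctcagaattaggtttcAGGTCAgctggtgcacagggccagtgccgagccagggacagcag
Plin5: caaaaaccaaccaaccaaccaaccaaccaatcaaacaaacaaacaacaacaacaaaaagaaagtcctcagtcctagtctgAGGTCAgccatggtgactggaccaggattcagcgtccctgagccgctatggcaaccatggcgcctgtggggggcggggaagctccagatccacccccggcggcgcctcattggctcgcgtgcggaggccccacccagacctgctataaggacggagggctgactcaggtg
Of the 26 genes of the fatty acid list, 22 matched the table, and AGGTCA stood in the 250-base window of 7 of them on either strand. These were Acadm, Acadvl, Cd36, Cpt1a, Echs1, Plin5 and Ucp3. By promoter, 7 of the 26 entries of these genes held it (26.9%), beside 14% of all 32851 promoters. The 3 printed genes were picked from these 7 genes. Acot1, Acot2, Mlycd, Acaa2 and Acacb, whose saline groups lie apart as given below, are not among the 7. The search was for a single copy of AGGTCA, and repeats of it were not searched for. A match is a description of the letters and does not show binding.

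Slc16a1 itself tests whether counts follow the genotype labels. The lowest WT saline heart had 165 CPM (counts scaled to a common library size), with a median of 190.0 and a highest value of 249. The saline hearts labelled MCT1KO had 153, 153, 194 and 132 CPM. Of these 4 hearts, 3 lay below all 6 WT hearts and the other lay within them. The fitted log2 difference, MCT1KO minus WT, was −0.33 (SE 0.13, 95% confidence interval −0.60 to −0.06), with an edgeR adjusted p of 0.219. With saline, Slc16a1 RNA was thus still counted in all 4 libraries labelled MCT1KO, at a level slightly below WT on average. Without a pump it ran from 150 to 233 CPM in WT and from 167 to 223 CPM in MCT1KO hearts. Under Ang/PE it ran from 203 to 223 CPM in WT and from 162 to 213 CPM in MCT1KO hearts. The genotypes overlapped in both of these treatments. Counts are per whole gene, so a deletion of some exons cannot be seen in them, and every direction given here rests on the label.

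Total counts ran from 17061622 to 19034565 in WT and from 14034354 to 17421963 in MCT1KO saline hearts, so depth moved with genotype. The share of counts from mitochondrial genome genes was 8.94% to 14.8% in WT and 9.03% to 17.3% in MCT1KO saline hearts. Xist, the RNA made from the inactive X chromosome of females, was above 100 CPM in 1 of 6 WT saline hearts (heart 6) and in 3 of 4 labelled MCT1KO (hearts 1, 2 and 3). The Y-linked genes Ddx3y, Kdm5d and Eif2s3y were at 0 in those 4 hearts, and were between 26.7 and 75.2 CPM in the other 6. Presence of Xist therefore moves with genotype, and the part it has in any difference was not tested beyond the values given here. Within the hearts without Xist the comparison is 1 MCT1KO heart (heart 4) against 5 WT, and within those with Xist it is 3 against 1. The labels give no sequencing batch.

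Saline hearts differed widely in atrial and fat genes, and MCT1KO heart 4 stood apart. Myl7, the atrial myosin light chain, was at 0.465, 4.58, 131, 379, 50.1 and 178 CPM in WT hearts 1 to 6. It was at 237, 244, 0 and 1357 CPM in MCT1KO hearts 1 to 4. Both genotypes thus held hearts with almost no Myl7 and hearts with a high level, while none of the 15 other hearts of the series exceeded 0.785 CPM. Sln, which encodes sarcolipin, the calcium pump inhibitor of atrial muscle, ran from 0.116 to 145 CPM in WT and was at 85.0, 67.3, 0 and 348 CPM in MCT1KO hearts. Of the 8 atrial genes, 1 had an unadjusted p below 0.05 in the direction of a higher level, beside 8.43% of all 17682 genes tested. The median log2 difference was 1.40 over these 8 genes and 0.03 over all genes. Without MCT1KO heart 4 the median of the atrial genes was 0.11 and none had p below 0.05, beside 3.16% of genes. The gene that had it with all hearts was Gja5, which encodes the atrial and conduction gap junction protein connexin 40, at 6.30 to 26.3 CPM in WT and 22.8, 19.4, 5.75 and 107 CPM in MCT1KO hearts.

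The fat genes Ucp1 and Adipoq were also highest in MCT1KO heart 4, but some hearts with Myl7, such as WT heart 3, had little of them. Ucp1, the uncoupling protein that defines brown fat, was at 0 CPM in 3 WT saline hearts and at 0.441, 0.627 and 8.01 CPM in the other 3. The hearts labelled MCT1KO had 11.4, 7.53, 0.0625 and 551 CPM. Adipoq, which encodes the fat cell hormone adiponectin, was at 0 to 4.80 CPM in WT hearts and at 7.40, 5.56, 0.125 and 123 CPM in those labelled MCT1KO. In both genes 3 of the 4 MCT1KO hearts lay at or near the top of the 10, and heart 3 was near 0. Of the 12 general fat genes, 11 passed the filter on low counts and 10 were higher with an unadjusted p below 0.05, beside 8.43% of all genes. Lep, which encodes leptin, did not pass the filter and reached 1.36 CPM at most. Without MCT1KO heart 4, 6 of the 11 had p below 0.05 on the high side (3.16% of all genes), and their median log2 difference was 1.56 in place of 4.54. For brown fat, 4 of 5 tested genes were higher at p below 0.05 with all hearts and 0 without heart 4, with medians of 2.30 and 0.33, beside the same 8.43% and 3.16% of all genes.

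Fasn, which encodes fatty acid synthase, was at 60.0 to 118 CPM in WT hearts, with a median of 75.2. It was at 303, 195, 46.6 and 4055 CPM in MCT1KO hearts. The log2 difference was 3.76 (SE 0.72) with an edgeR adjusted p of 0.0980, and it was 1.11 without heart 4. Scd1, a fatty acid desaturase, ran from 19.1 to 109.5 CPM in WT hearts and was at 185, 68.5, 24.9 and 3428 CPM in MCT1KO hearts. MCT1KO heart 3 lay below all WT hearts for Fasn and within the WT values for Scd1. Adrb3, the beta-3 adrenergic receptor of fat, was at 0 to 0.931 CPM in WT hearts and at 2.59, 1.57, 0.125 and 37.2 CPM in MCT1KO hearts. Cfd, the secreted fat cell protease adipsin, was at 0.217 to 11.7 CPM and at 34.5, 26.0, 0.875 and 380 CPM. In a bulk sample, more cells of a type and more RNA per cell cannot be told apart.

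Mesothelial genes, which mark the surface lining of the heart, had a median log2 difference of 1.45 over 6 genes and of 0.30 without MCT1KO heart 4. Upk3b, a uroplakin of mesothelium, was at 0.690 to 14.05 CPM in WT hearts and at 11.6, 11.6, 1.62 and 49.9 CPM in MCT1KO hearts. The smooth muscle myosin gene Myh11 was at 29.1 to 57.2 CPM in WT hearts and at 46.1, 24.2, 24.4 and 314 CPM in MCT1KO hearts. Its log2 difference of 1.28 turned to −0.40 without heart 4. Cnn1, which encodes the smooth muscle protein calponin, likewise went from 1.84 to −0.17. Of the 7 smooth muscle and pericyte genes, 4 had an unadjusted p below 0.05 on the high side, beside 8.43% of all genes. On the low side 1 had such a p, beside 8.62%. Of the 7, 3 were below 0, among them Pdgfrb at −0.18. Without heart 4 the list median was −0.11 in place of 0.85. Summed levels in the saline hearts were at most 0.108 CPM for the lung list, 0.686 CPM for the thymus list and 1.89 CPM for the skeletal muscle list. Upk3b, Myh11 and Cnn1 were highest in MCT1KO heart 4, as Myl7, Sln, Ucp1 and Adipoq were.

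**Figure D1:**
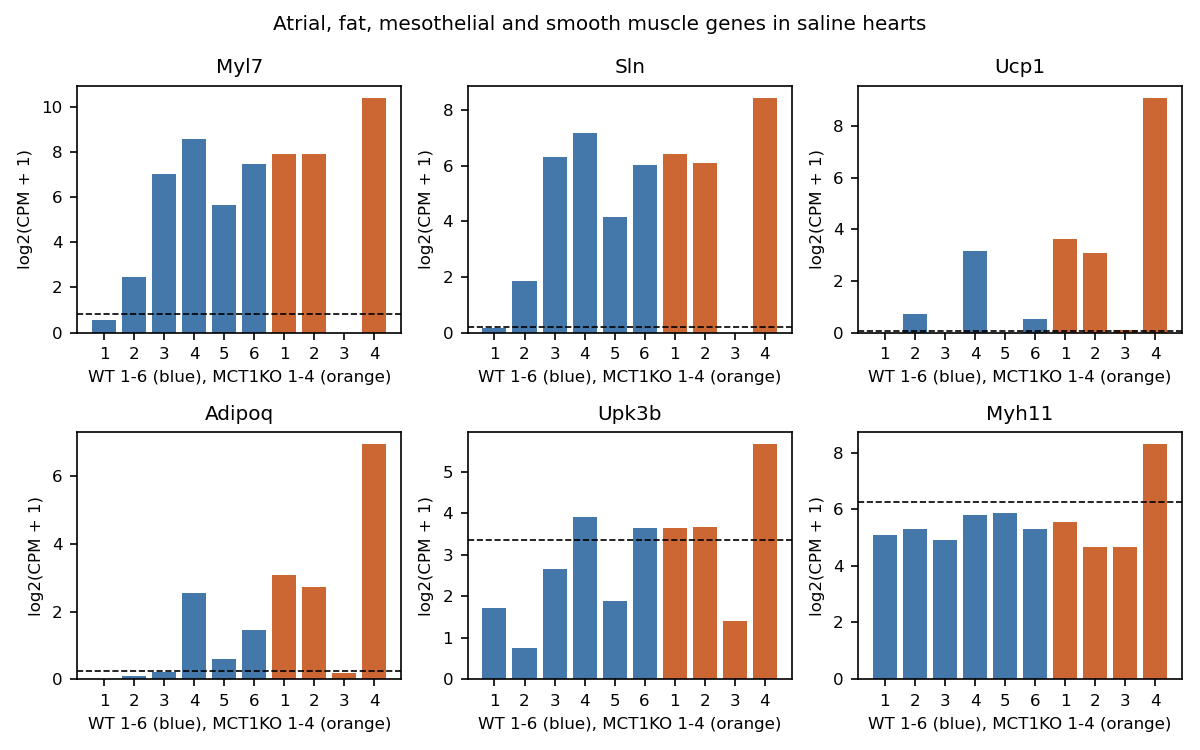
Bars give log2(CPM + 1) of 6 genes in each saline heart, WT hearts 1 to 6 in blue and hearts labelled MCT1KO 1 to 4 in orange, and the dashed line marks the highest of the 15 other hearts. Myl7 and Sln (atrial), Ucp1 and Adipoq (fat), Upk3b (mesothelium) and Myh11 (smooth muscle) are highest in MCT1KO heart 4, and Myl7 and Sln are near 0 in WT heart 1 and MCT1KO heart 3.

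Across all genes, the edgeR quasi-likelihood test of the saline hearts called 0 of 17682 at an adjusted p below 0.05 (0%), and the lowest adjusted p was 0.0980. At an unadjusted p below 0.05 there were 3014 genes (17%), 1490 of them higher and 1524 lower in hearts labelled MCT1KO (8.43% and 8.62%). DESeq2 called 80 higher and 61 lower genes (0.452% and 0.345%), and limma voom with sample quality weights called 217 and 329 (1.23% and 1.86%). Without MCT1KO heart 4 the edgeR test called 0 genes and 1209 had an unadjusted p below 0.05. Without MCT1KO heart 3 it called 250, and without MCT1KO heart 2 it called 78. All 4 MCT1KO hearts lay above all 6 WT hearts in 189 genes (1.07%) and below them in 321 (1.82%). MCT1KO hearts 1 and 2 had counts far more alike than any other pair of saline hearts of one genotype, which limits what agreement of all 4 shows.

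From these non-overlapping genes the 12 higher and the 12 lower genes of smallest p were named, so their separation and p-values are a description. Their adjusted p ran from 0.0980 to 0.105 in the edgeR test, and none passed 0.05. DESeq2 called 23 of the 24, and limma voom called 20. For the remaining gene, Slc24a3, DESeq2 gave a log2 difference of 2.07 and no adjusted p. With presence of Xist as a covariate the edgeR test called 75 higher and 3 lower genes in all (0.424% and 0.017%), among them 9 of the 24: Slc24a3, Irf4, Sowahc, Tceal8, Stx1a, Frrs1, Mrap, Aspa and Wif1.

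Among the lower genes, Wif1, which encodes a secreted inhibitor of Wnt signalling, had the largest difference in size. Its level was 5.46, 4.77, 6.44, 6.66, 5.22 and 4.90 CPM in WT saline hearts 1 to 6. It was 1.69, 1.90, 1.87 and 1.95 CPM in MCT1KO hearts 1 to 4. The 4 hearts lay close together and below all 6, with a log2 difference of −1.59 (SE 0.28, edgeR adjusted p 0.0980). The difference was −1.60 without MCT1KO heart 4. On the scale of log2(CPM + 0.5) it was −1.33 in the hearts without Xist and −1.22 in those with it. Wif1 ran from 1.27 to 5.49 CPM in the 15 other hearts, so the low values were also reached outside the saline hearts labelled MCT1KO.

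Abcb1a, which encodes the drug efflux pump P-glycoprotein, was at 31.7, 31.9, 29.8, 28.3, 28.7 and 27.4 CPM in WT and at 25.4, 22.1, 22.6 and 20.7 CPM in MCT1KO saline hearts. The groups lay apart by a small margin, with a log2 difference of −0.38 (SE 0.08, edgeR adjusted p 0.0980). Nkain1, which encodes a partner of the sodium pump, was at 5.39 to 8.84 CPM in WT hearts and at 4.54, 4.06, 4.87 and 2.48 CPM in MCT1KO hearts (log2 difference −0.87, SE 0.17). Twnk, the helicase that copies mitochondrial DNA, was at 33.9 to 43.1 CPM and at 31.1, 28.9, 28.6 and 23.1 CPM. Mtif3, a mitochondrial translation initiation factor, was at 16.4 to 18.9 CPM and at 14.1, 14.4, 13.3 and 11.1 CPM. Both genes serve the mitochondrial genome, and in each MCT1KO heart 4 was the lowest of the 10 hearts. Their log2 differences were −0.45 (SE 0.10) and −0.42 (SE 0.10).

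The lower genes also held Sptb, which encodes the membrane skeleton protein beta spectrin, at 399 to 531 CPM in WT hearts and 335, 387, 297 and 260 CPM in MCT1KO hearts. Myo5b, a vesicle-transporting myosin, was at 56.0 to 81.8 CPM in WT hearts and 51.4, 53.6, 51.0 and 30.1 CPM in MCT1KO hearts. Actr3b, an actin-related protein, was at 26.7 to 45.5 CPM in WT hearts and 22.7, 22.4, 24.7 and 10.4 CPM in MCT1KO hearts. In Myo5b and Actr3b heart 4 lay far below the other 3. Rcc1l and Dcaf5 had log2 differences of −0.48 and −0.36. The remaining Acot2 and Mlycd belong to the fatty acid list and are given with it.

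Among the higher genes, Slc24a3, Irf4, Sowahc, Mrap and Aspa had their highest value by far in the fat-rich MCT1KO heart 4. Slc24a3, a sodium, calcium and potassium exchanger, was at 2.44 to 4.12 CPM in WT hearts and at 5.07, 4.12, 4.62 and 35.1 CPM in MCT1KO hearts. Its log2 difference of 2.08 was 0.68 without heart 4. Irf4, a transcription factor of immune cells and fat cells, was at 0.624 to 1.71 CPM in WT hearts and at 2.38, 2.88, 2.94 and 15.3 CPM in MCT1KO hearts, with log2 differences of 2.27 and, without heart 4, 1.17. Mrap, an accessory protein of melanocortin receptors made in adrenal and fat cells, was at 3.35 to 4.42 CPM in WT hearts and at 5.34, 4.52, 5.94 and 14.1 CPM in MCT1KO hearts. For Irf4 the other MCT1KO hearts also lay above all WT saline hearts, but WT heart 4 without a pump was higher than they were, at 3.27 CPM. For Slc24a3 and Mrap the lowest MCT1KO saline heart lay close to the highest WT saline heart. Sowahc and Aspa, the latter encoding the enzyme that splits N-acetylaspartate, had log2 differences of 1.38 and 1.13 with all hearts and 0.64 and 0.62 without heart 4.

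The other higher genes differed less between the MCT1KO hearts. Slx4ip, which encodes a partner of the SLX4 nuclease scaffold, was at 2.37 to 3.72 CPM in WT hearts and at 3.80, 4.38, 4.87 and 4.48 CPM in MCT1KO hearts. Its log2 difference was 0.62 (SE 0.15) with all hearts and 0.62 without heart 4. Ftx, a noncoding RNA gene of the X inactivation centre near Xist, was at 6.92 to 11.02 CPM in WT hearts and at 12.4, 11.8, 12.1 and 15.04 CPM in MCT1KO hearts. WT heart 6, which has Xist, was the highest WT heart for both Slx4ip and Ftx, and within the hearts with Xist the differences were 0.19 and 0.13 on the log2(CPM + 0.5) scale. Tceal8 (0.64), Stx1a (0.84), Frrs1 (0.54), Cers2 (0.32) and Ctso (0.43) make up the rest of the higher genes, with log2 differences in parentheses. Cers2 encodes a ceramide synthase and Ctso a cathepsin.

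**Figure D2:**
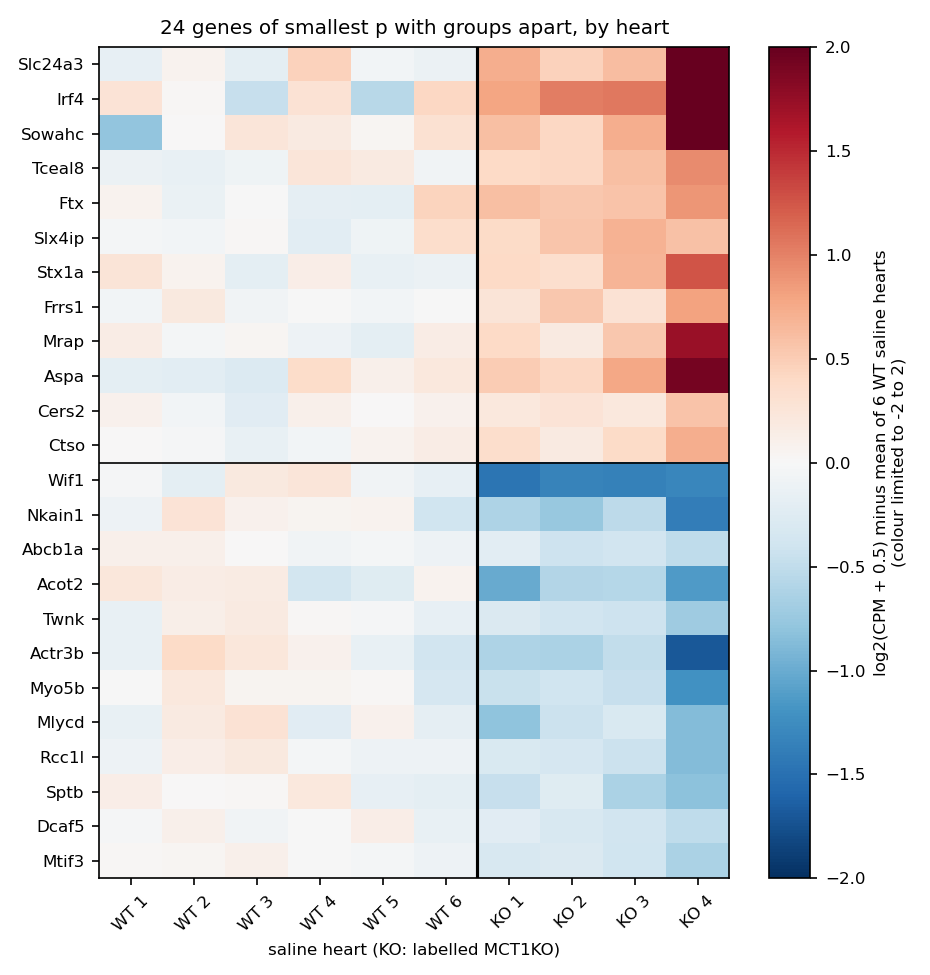
The heat map shows log2(CPM + 0.5) minus the mean of the 6 WT saline hearts for the 24 named genes, 12 higher above the line and 12 lower below it, in WT hearts 1 to 6 and hearts labelled MCT1KO (KO) 1 to 4. Slc24a3 and Irf4 are darkest in KO heart 4, whereas Wif1 is evenly low in all 4.

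Fatty acid genes as a list lay below WT. Of 26 genes, all of which passed the filter on low counts, 19 had an unadjusted p below 0.05 on the low side and 0 on the high side, beside 8.62% and 8.43% of all genes. The edgeR test called 0 of them after adjustment, as of all genes. DESeq2 called 4 as lower (Acadvl, Acot1, Acot2 and Mlycd), beside 0.345% of all genes. The limma voom fit called 13 as lower, beside 1.86%. The median log2 difference was −0.37, and 24 of 26 were below 0, beside 45.3% of all genes. In 7 genes, beside 1.82% of all genes, all 4 MCT1KO hearts lay below all 6 WT hearts: Acot1, Acot2, Mlycd, Acaa2, Acacb, Cpt1a and Ucp3. The list was chosen with earlier results of these data known, and its count is given as a description.

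Cd36, the fatty acid transporter of the cell surface, was at 1218 to 1499 CPM in WT hearts and at 922, 1028, 1982 and 794 CPM in MCT1KO hearts. Fabp3, the fatty acid binding protein of heart muscle, was at 1151 to 1683 CPM and at 959, 1185, 1768 and 538 CPM. In both genes MCT1KO heart 3 was the highest of the 10 hearts, and the log2 differences were −0.18 (SE 0.19) and −0.30 (SE 0.20). Slc27a1, a fatty acid transport protein, had a log2 difference of −0.33 (SE 0.15), and Acsl1, which joins fatty acids to coenzyme A, had −0.31 (SE 0.15).

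Genes for entry into mitochondria lay lower in most hearts labelled MCT1KO. Cpt1a, an isoform of the carnitine palmitoyltransferase that starts this entry, was at 95.2 to 109.3 CPM in WT hearts and at 71.7, 93.6, 68.2 and 90.9 CPM in MCT1KO hearts. Cpt1b, the muscle isoform, was at 88.7 to 117 CPM and at 78.1, 90.1, 88.5 and 68.5 CPM. Their log2 differences were both −0.33. Slc25a20, the carnitine carrier of the inner membrane, was at 116 to 168 CPM in WT hearts and at 85.0, 97.4, 119 and 96.8 CPM in MCT1KO hearts, with a log2 difference of −0.52 (SE 0.15). Mlycd, which removes the malonyl-CoA that inhibits this entry, was at 90.7 to 130.2 CPM in WT hearts and at 60.4, 78.9, 85.5 and 57.9 CPM in MCT1KO hearts (log2 difference −0.60, SE 0.14, edgeR adjusted p 0.0980). Acacb, which makes malonyl-CoA at mitochondria, was also lower in all 4 hearts, at 693 to 962 CPM in WT hearts and 608, 648, 573 and 685 CPM in MCT1KO hearts. The pair thus lay on the same side although they act in opposite directions.

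The oxidation enzymes of the list included dehydrogenases of medium and very long chains, but not the short-chain dehydrogenase gene Acads. Acadm, whose upstream bases are printed above, was at 676 to 1123 CPM in WT hearts, with a median of 894, and at 555, 690, 805 and 464 CPM in MCT1KO hearts. Its log2 difference was −0.53 (SE 0.17, edgeR adjusted p 0.160) and the groups overlapped. Acadvl, the very-long-chain dehydrogenase, was at 770 to 1132 CPM in WT hearts and at 638, 688, 788 and 553 CPM in MCT1KO hearts, with a difference of −0.50 (SE 0.14). Hadha, the alpha subunit of the trifunctional protein, was at 1168 to 1609 CPM and at 929, 1049, 1177 and 679.5 CPM, a difference of −0.51 (SE 0.16). For all 3 enzymes MCT1KO heart 3 lay inside the WT range and heart 4 was the lowest. Acaa2, a thiolase of the last step, was at 572 to 831 CPM in WT hearts and at 452, 502, 568 and 453 CPM in MCT1KO hearts.

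Acot1 and Acot2 encode thioesterases that release fatty acids from coenzyme A. Acot2 was at 76.4 to 115 CPM in WT hearts, with a median of 106, and at 48.7, 65.6, 65.9 and 44.5 CPM in MCT1KO hearts. Its log2 difference was −0.83 (SE 0.18, edgeR adjusted p 0.0980). Acot1 was at 10.8 to 14.9 CPM in WT hearts and at 2.17, 5.10, 7.498 and 6.55 CPM in MCT1KO hearts, a difference of −1.25 (SE 0.34), the most negative of the list. The 2 genes are close copies, and how reads that match both were counted is not given in the sources used here. Ucp3 was at 74.6 to 126 CPM in WT hearts, with a median of 78.6, and at 24.6, 70.3, 38.9 and 54.7 CPM in MCT1KO hearts, a difference of −0.91 (SE 0.39). Plin5 was at 92.0 to 136 CPM and at 64.1, 79.6, 108 and 52.3 CPM, a difference of −0.57 (SE 0.18). Ucp3 lay apart in all 4 hearts and Plin5 overlapped through heart 3.

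Ppara and Ppargc1a, the regulators in the list, did not lie with the enzymes. Regulators outside the list are not reported here. Ppara, which encodes PPAR alpha, was at 52.5 to 77.1 CPM in WT hearts and at 68.1, 62.8, 68.5 and 81.9 CPM in MCT1KO hearts, a log2 difference of 0.21 (SE 0.15). Ppargc1a, its coactivator PGC-1 alpha, had a difference of −0.05 (SE 0.19). Angptl4, a lipase inhibitor that PPARs induce, ran from 3.84 to 20.7 CPM in WT hearts and was at 3.43, 7.002, 5.44 and 48.8 CPM in MCT1KO hearts. It was low in 3 MCT1KO hearts and highest in the fat-rich heart 4. Pnpla2, the fat cell and muscle triglyceride lipase, was at 291 to 334 CPM in WT hearts and at 238, 269, 232 and 512 CPM, with the same heart alone above WT.

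**Figure D3:**
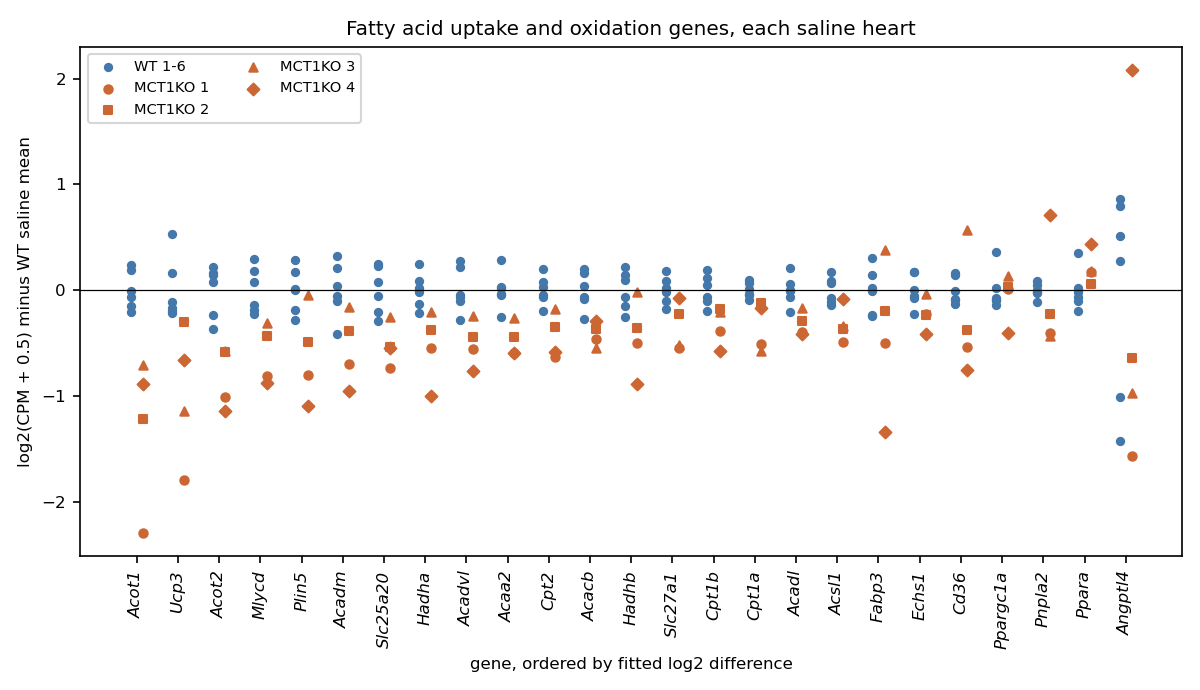
Points show log2(CPM + 0.5) minus the mean of the 6 WT saline hearts for 25 of the fatty acid genes, WT hearts in blue and hearts labelled MCT1KO in orange with a symbol for each heart. Acot1, Ucp3, Acot2 and Mlycd have all 4 MCT1KO hearts below all WT hearts, while Angptl4, Pnpla2 and Ppara have MCT1KO heart 4 highest.

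The low side of the fatty acid list was examined beside the markers that move with it. Without MCT1KO heart 4, 17 of 26 genes were lower at an unadjusted p below 0.05 (3.73% of all genes) with a median of −0.40. With presence of Xist as a covariate there were 11 of 26 (7.62% of all genes), with a median of −0.35. With an atrial score (Myl4, Myl7 and Sln) and a fat score (Ucp1, Cidea, Adipoq, Plin1 and Cidec) as covariates there were 4 of 26 (1.27% of all genes) at a median of −0.35, and with the scores and Xist together 1 of 26 (0.577%) at a median of −0.23. In the 4 hearts with Xist, 21 of 26 genes were below WT heart 6 on average, beside 49.7% of all genes, and the median difference was −0.18. In the hearts without Xist it was 22 of 26, beside 47.4% of all genes, with a median of −0.61. From 22 to 24 of the 26 members were below 0 in each of these 4 fits, while the number at p below 0.05 went from 17 to 1. The part of Xist, atrial and fat RNA in the differences was not tested beyond these values.

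General heart muscle genes lay lower too. Of 8 cardiomyocyte genes, 3 had an unadjusted p below 0.05 on the low side (Tnnt2, Ryr2 and Tnni3), beside 8.62% of all genes. All 8 were below 0, beside 45.3% of all genes, with a median of −0.33. Tnnt2, cardiac troponin T, was at 3428 to 4226 CPM in WT hearts and at 3391, 3456, 3268 and 2153 CPM in MCT1KO hearts. Without heart 4 the median was −0.17 and no gene had p below 0.05, and within the hearts with Xist the median was 0.09. The summed CPM of the fatty acid list divided by that of the cardiomyocyte list was 0.199 ± 0.00585 (SD, n = 6) in WT hearts and 0.200 ± 0.0420 (n = 4) in MCT1KO hearts. The ratios of MCT1KO hearts 1 to 4 were 0.159, 0.171, 0.228 and 0.244, so hearts 1 and 2 lay below the WT range of 0.190 to 0.206 and hearts 3 and 4 above it. Myl2 and Myl3, the ventricular myosin light chains, were at 839 and 592 CPM in MCT1KO heart 4, against 3489 or more and 2707 or more in the other 3. The 13 protein-coding genes of the mitochondrial genome were all below 0 with a median of −0.18, and 1 of them, mt-Nd6, had p below 0.05 (8.62% of all genes on that side). Within the hearts with Xist all 13 lay above 0, whereas 49.7% of all genes lay below 0. MCT1KO heart 3, which has the high mitochondrial share, is among these hearts.

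The lactate and pyruvate genes were of interest because MCT1 carries these substrates. Of 13 enzyme genes, 7 had an unadjusted p below 0.05 on the low side and 1 on the high side (8.62% and 8.43% of all genes), with a median of −0.40. Pdk1, a kinase that inhibits pyruvate dehydrogenase, was at 174 to 259 CPM in WT hearts and at 173, 169.7, 189.6 and 124 CPM in MCT1KO hearts, a log2 difference of −0.46 (SE 0.12, edgeR adjusted p 0.125). Pdhx and Dlat, structural subunits of the pyruvate dehydrogenase complex, had differences of −0.42 (SE 0.12) and −0.31 (SE 0.12). Dlat was the member whose groups did not overlap, at 332 to 438 CPM in WT hearts and 325, 329, 325 and 256 CPM in MCT1KO hearts. It was 1 of the 13, beside 1.82% of all genes with all 4 MCT1KO hearts below all 6 WT hearts. Ldhb, the heart lactate dehydrogenase subunit, was at 916 to 1358 CPM in WT hearts and at 921, 919, 988 and 430.5 CPM in MCT1KO hearts. Its log2 difference of −0.50 was −0.28 without heart 4. Ldha, the muscle subunit, had −0.15 (SE 0.10). Pdk4, a kinase that fatty acids and glucocorticoids induce, ran from 394 to 797 CPM in WT hearts and was at 90.6, 328, 447 and 631 CPM in MCT1KO hearts, so 1 heart lay far below the rest. Without heart 4, 5 of the 13 genes had p below 0.05 on the low side (3.73% of all genes) and the median was −0.28. Within the hearts with Xist 5 of 13 lay below 0 (49.7% of all genes) and the median was 0.01.

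Transporters lay on both sides. Slc16a7, which encodes the high-affinity pyruvate transporter MCT2, was at 9.59 to 20.8 CPM in WT hearts and at 21.7, 20.1, 19.99 and 27.7 CPM in MCT1KO hearts, a log2 difference of 0.58 (SE 0.18, edgeR adjusted p 0.154). Emb, the chaperone embigin that partners MCT2, was at 0.698 to 2.25 CPM and at 1.69, 2.49, 1.4996 and 4.84 CPM, a difference of 0.91 (SE 0.34). WT heart 6, the WT heart with Xist, was the highest of its group in both genes, and within the hearts with Xist the differences were −0.01 and −0.23 on the log2(CPM + 0.5) scale. Bsg, the chaperone basigin of MCT1, was at 668 to 835 CPM in WT hearts and at 658, 683, 745 and 341 CPM in MCT1KO hearts. Mpc1 and Mpc2, the subunits of the mitochondrial pyruvate carrier, had differences of 0.00 (SE 0.14) and −0.31 (SE 0.14). In all, 2 of the 10 transport genes had an unadjusted p below 0.05 on each side, beside 8.43% of all genes on the high and 8.62% on the low side.

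Of 18 glucose uptake and glycolysis genes, 5 were lower and 1 higher at an unadjusted p below 0.05 (8.62% and 8.43% of all genes), with a median of −0.25. Pfkm, the muscle phosphofructokinase, was at 995 to 1335 CPM in WT hearts and at 1019, 964, 828 and 507 CPM in MCT1KO hearts, a log2 difference of −0.47 (SE 0.16). The glycolytic enzymes Aldoa and Pkm had −0.37 and −0.33. Without MCT1KO heart 4 the median was −0.11 and 1 of 18 genes was lower at p below 0.05, near the 3.73% of all genes. All 3 ketone body genes lay below 0, beside 45.3% of all genes, with a list median of −0.35. Oxct1, the enzyme that activates acetoacetate, was at −0.40 (SE 0.15). Within the hearts with Xist, 0 of these 3 genes lay below 0, beside 49.7% of all genes.

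Most stress and matrix genes overlapped between the genotypes. The natriuretic peptide gene Nppa ran from 44.5 to 1459 CPM in WT hearts and was at 1689, 1366, 62.5 and 3706 CPM in MCT1KO hearts, with the lowest and the highest value of these 4 in the same hearts as for Myl7. Nppb, which encodes the B-type peptide, was at 99.1 to 166 CPM and at 210.3, 158.5, 297 and 80.2 CPM. Atp2a2, the calcium pump of the sarcoplasmic reticulum, was the hypertrophy gene with no overlap, at 15298 to 19847 CPM in WT hearts and 14629, 15036, 14565 and 10590 CPM in MCT1KO hearts (log2 difference −0.36, SE 0.16). It was 1 of 10 hypertrophy genes, beside 1.82% of all genes with all 4 MCT1KO hearts below all 6 WT hearts. Of 16 matrix genes 1 had p below 0.05 (8.43% of all genes on that side), Fn1, which encodes fibronectin, at 70.9 to 139 CPM in WT hearts and 129, 128, 80.3 and 270 CPM in MCT1KO hearts. Its log2 difference of 0.58 was 0.16 without heart 4. Lum, a fibroblast proteoglycan gene, was at 30.1 to 60.0 CPM in WT hearts and at 72.1, 64.9, 87.1 and 66.9 CPM in MCT1KO hearts, a difference of 0.66 (SE 0.24, edgeR adjusted p 0.187), with all 4 above all 6. It was 1 of 6 fibroblast genes with all 4 above all 6, beside 1.07% of all genes.

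Hormone and immune lists gave few genes at an unadjusted p below 0.05, which 8.43% of all genes had on the high side and 8.62% on the low side. None of 10 glucocorticoid genes had it. Fkbp5 and Zbtb16, induced by glucocorticoids, were at 70.6 and 407 CPM in MCT1KO heart 3, against 16.7 to 28.0 and 91.8 to 166 CPM in the other 9 saline hearts. None of 11 immediate early genes had it, and Fos was at 51.1 CPM in MCT1KO heart 4, against 2.01 to 8.12 CPM in the others. Of 10 interferon genes 1 had it, Oasl2, at 0.45 (SE 0.19), and of 7 tested leukocyte genes 1 had it, Cd3e, at 0.88 (SE 0.41). Of 6 endothelial genes 2 were lower, Kdr, the main VEGF receptor, at −0.40 (SE 0.15) and Cdh5, the vascular cadherin, at −0.25 (SE 0.10).

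**Figure D4:**
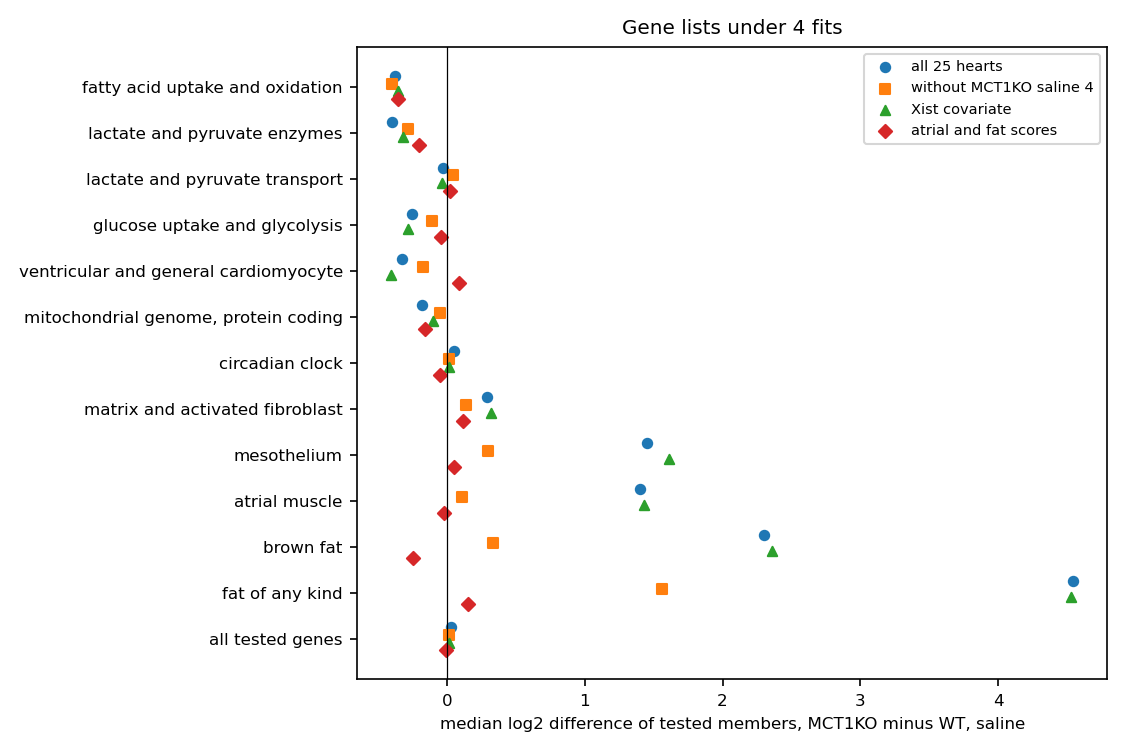
Points show the median log2 difference, MCT1KO minus WT with saline, of the tested members of 12 gene lists and of all genes under 4 fits: all 25 hearts, without MCT1KO saline heart 4, with Xist, and with atrial and fat scores. The fatty acid median lies between −0.40 and −0.35 in all 4 fits, while the medians of the atrial and both fat lists move towards 0 without MCT1KO heart 4.

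The genotype difference with saline was compared with that in the other treatments, which use other hearts. Xist was present in 1 of 6 WT and 3 of 4 MCT1KO hearts with saline. Without a pump it was present in 2 of 4 WT and 0 of 3 MCT1KO hearts, and under Ang/PE in 3 of 3 and 4 of 5. The balance of Xist between genotypes thus differs by treatment, and its part in these comparisons was not tested beyond the Xist covariate. Of the 24 named genes, 5 had the same sign without a pump and 10 under Ang/PE, beside 45.7% and 45.3% of all genes. The saline values chose these genes, so their own saline differences add nothing to this count. Without a pump 0 of the 24 had the same sign with an unadjusted p below 0.05 (12.2% of all genes had such a p in either direction), and under Ang/PE 1 had it (6.92%), Abcb1a. Wif1 had log2 differences of 0.28 without a pump and 0.06 under Ang/PE, beside −1.59 with saline. For the fatty acid list the median was −0.06 without a pump and −0.17 under Ang/PE, with 0 and 1 of 26 genes lower at p below 0.05 (6.74% and 2.92% of all genes).

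The test of the difference between saline and no pump called 1 of 17682 genes (0.00566%), Abcb1a. Without a pump its level was 26.1, 28.1, 22.5 and 25.5 CPM in WT and 34.1, 36.7 and 32.4 CPM in MCT1KO hearts, so the MCT1KO hearts lay above WT there and below WT with saline. The log2 difference was 0.43 (SE 0.10) without a pump and −0.38 with saline, and the interaction was −0.81 (SE 0.13, edgeR adjusted p 0.0285). Under Ang/PE Abcb1a was at 26.5, 27.5 and 25.7 CPM in WT and at 22.4, 20.5, 26.4, 25.6 and 20.3 CPM in MCT1KO hearts. Over 22 alternatives the interaction lay between −0.86 and −0.73, and it passed in 11 of them, with adjusted p from 1.46e-05 to 0.979. It did not pass with the Xist covariate (0.164) or without MCT1KO heart 4 (0.0796). At an unadjusted p below 0.05 there were 3044 genes (17.2%) for saline against no pump and 2392 (13.5%) for saline against Ang/PE, where 0 passed adjustment. In the fatty acid list 11 of 26 genes had such a p on the low side against no pump (8.35% of all genes) and 2 against Ang/PE (7.48%).

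**Figure D5:**
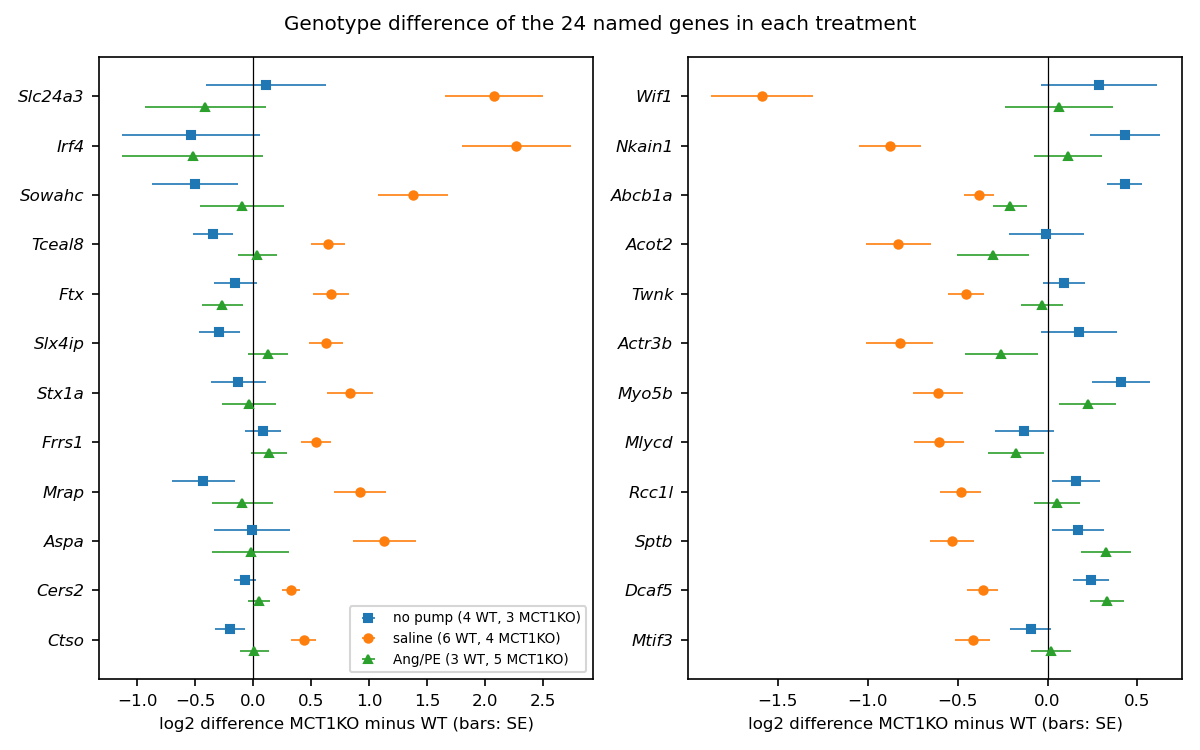
Points show the log2 difference of MCT1KO minus WT with its standard error for the 24 named genes without a pump (squares), with saline (circles) and under Ang/PE (triangles), the higher genes at left and the lower genes at right. Abcb1a lies above 0 without a pump and below 0 with saline and Ang/PE, and Wif1 lies far below 0 with saline and near 0 in the other treatments.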

How the data were processed

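RNA was isolated from each of 25 mouse hearts, ribosomal RNA was depleted and stranded libraries were made, per the labels' protocols. The authors deposited read counts per gene for 56941 Ensembl genes, with no normalization. The submitters' processing notes name STAR 2.7.9a, cutadapt 1.16, featureCounts 1.6.3 and DESeq2 1.42.1 and the build GRCm39, without their roles. Whether counting used strand is not given in the sources used here, so antisense and overlapping genes are uncertain.

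Symbols were found for 51948 genes, and genes with no entry in the name table held 0.778% of the reads. Counts were tested with edgeR 4.0.16 in R 4.3.3 (filterByExpr by group, TMM, glmQLFit robust, glmQLFTest, two-sided, Benjamini-Hochberg over 17682 genes, call at 0.05). All 25 hearts in 6 groups shared the spread (19 residual degrees of freedom, common biological coefficient of variation 0.196). Standard errors come from the F statistic. CPM use TMM-scaled library sizes. Intervals cover the fitted spread between hearts.

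The rule for named genes took Slc16a1, the members of the gene lists (up to 4 per list of smallest p, with others named for their role after their values were seen), and 12 higher and 12 lower genes of smallest p among genes with a symbol, no predicted models, a mean log2 CPM above 1 and no overlap of the groups. The members and lists were chosen with earlier results of these data known. Scores are means of log2(CPM + 0.1). Xist counted as present at 100 CPM or more. The alternatives were RLE scaling, no filter, the compared groups alone, a replicate block, a non-robust fit, mitochondrial genes removed, covariates, DESeq2 1.42.0, limma 3.58.1 voom with sample quality weights, and leaving out each saline heart. Thinning to the smallest library, Xist with both scores, and list counts under settings were chosen after seeing the data. The scripts were tested on simulated data. Saline replicates of a group were compared by chi-square per degree of freedom. The lowest value was 3.33, between MCT1KO hearts 1 and 2, and the next lowest was 9.80, between WT hearts 2 and 3. The other pairs of MCT1KO hearts ran from 47.3 to 108. None was treated as a copy. Some genes of the lists are counted in them and not reported here by name.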

Additional observations from a re-analysis of the deposited data

Results flagged for a closer look

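Of 60 checks for a heart far from the rest of its saline group, 8 met the criterion (Dixon's 95% critical value, which chance meets in about 1 of 20), and 5 of these were MCT1KO heart 4. Values are log2(CPM + 0.5). In MCT1KO heart 4, Slc24a3 was at 5.15 (next 2.48), Irf4 at 3.98 (next 1.78) and Sowahc at 3.94 (next 2.30). The same heart was low for Actr3b, at 3.44 (next 4.52), and for Myo5b, at 4.93 (next 5.69). Sowahc was low in WT heart 1, at 0.78 (next 1.59), and Frrs1 was high in WT heart 2, at 2.41 (next 2.21). Genes of the mitochondrial genome took 17.3% of the counts in MCT1KO heart 3, where the next heart had 10%. The genotype difference of Abcb1a was not the same with saline as without a pump, by an edgeR interaction test over all genes, with a log2 difference of differences of −0.81 and an adjusted p of 0.0285. This interaction passed in 11 of 22 alternatives. It did not pass with the compared groups alone (edgeR adjusted p 0.0598) or with the Xist covariate (0.164).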

How the results depend on the processing

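For MCT1KO against WT with saline, where the edgeR test called 0 genes, 1 was called with the compared groups alone, 28 with the non-robust fit (26 higher), 78 with the Xist covariate (75 higher), 141 with DESeq2 and 546 with limma voom. Leaving out a heart gave 0 to 250. The 3014 genes at an unadjusted p below 0.05 became 451 with the atrial and fat scores and 210 with Xist added, and leaving out a heart gave 1209 to 3659. Slc16a1 stayed below 0 in all 22 alternatives, from −0.43 to −0.12. For saline against no pump, where 1 gene was called, there were 3 with no filter, 0 with the compared groups alone, with Xist, with the scores or with both, 371 with DESeq2, 1204 with limma voom, and 0 to 14 on leaving out a heart (14 without WT heart 6). For saline against Ang/PE, DESeq2 called 13 and limma voom 1, where edgeR called 0. The causes were not tested.

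Same-numbered hearts are different animals. Over 4 same-numbered pairs the deviations from group means had correlations of −0.0966, 0.0970, 0.0181 and 0.430, and 1 of 4 hearts correlated best with its own number, so the numbers were not taken to pair hearts. With the replicate block 115 genes were called for saline (48 higher, 67 lower) and 9 for saline against no pump.

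Some named genes changed sign. With both scores Mpc2 was at 0.0154, Fn1 −0.17, Tnni3 0.0711, Gja5 −0.21, Cidea −0.63, Otop1 −0.48, Dio2 −0.25, Fasn −0.24, Scd1 −0.29, Cnn1 −1.29 and Myh11 −1.14. With Xist and the scores Emb was at −0.26, Fn1 −0.0903, Oasl2 −0.18, Gja5 −0.0101, Cidea −0.17, Otop1 −0.70, Adrb3 −0.23, Cfd −0.26, Cnn1 −1.08, Myh11 −0.78, Acta2 −0.18 and mt-Nd6 0.0022. Leaving out a heart gave −0.17 to 2.22 for Cnn1 and −0.40 to 1.61 for Myh11, the lowest values without MCT1KO heart 4, and Myh11 was at −0.23 with limma voom. Cidea is in the fat score. Of 2589 values of 118 single genes, 154 passed the threshold in an alternative. In genes with an unadjusted p below 0.05 in the main edgeR test, 26 values changed sign. In the other genes, 50 values changed sign by more than the standard error. The remaining 2359 kept direction and side of the threshold, or changed sign by no more than the standard error in those other genes. The comparison rests on 4 hearts against 6, with 14034354 to 19034565 counts a heart.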
